A study of Mus with 18 samples.

Results

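The genes described here are the metallothioneins Mt1 and Mt2, the transcription factor Mtf1, the zinc importers Slc39a14, Slc39a10, Slc39a1 and Slc39a8, and the zinc exporters Slc30a1 and Slc30a4. They were taken by gene symbol, and all 9 were found among the 21401 symbols of each expression table. RNA sequencing had been run on 18 libraries, 9 labelled as C2C12, a mouse myoblast line, and 9 from the gastrocnemius muscle of male C57BL/6 mice, all wild type. Each experiment held 3 control, 3 LPS and 3 LPS-MIC-1 libraries. Lipopolysaccharide (LPS) is a bacterial cell wall component that provokes inflammation, and moringa isothiocyanate-1 (MIC-1) is a compound from the seeds of Moringa oleifera.

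The C2C12 LPS groups received LPS at 1 μg/mL, and the LPS-MIC-1 group also received MIC-1, at 10 μM by the labels, for 24 h. The text of the study gives a lower MIC-1 dose for the same libraries. Mice of the LPS groups were injected intraperitoneally with LPS at 10 mg/kg, and those of the LPS-MIC-1 group had been given MIC-1 by mouth at 80 mg/kg daily for 3 days before. Muscles were taken 16 h after LPS. Controls received vehicle, which the labels call saline, and no group received MIC-1 without LPS. The study itself names ethanol as the vehicle for the cells and dimethyl sulfoxide by mouth for the control mice. The ages of the mice, and whether each muscle library came from 1 mouse and each C2C12 library from a separate culture, are not given in the sources used here, so the p-values measure the spread between these libraries only.

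Metallothioneins are small, cysteine-rich proteins that bind zinc and copper ions in the cytosol. Metal-responsive transcription factor 1, the product of Mtf1, binds zinc and switches on Mt1, Mt2 and Slc30a1 when free zinc is high. Transporters of the Slc39 (ZIP) family move zinc into the cytosol, and those of the Slc30 (ZnT) family move it out of the cell or into vesicles. Metallothioneins and Slc39a14 are known as acute-phase genes that respond to interleukin-6, and glucocorticoids also induce metallothioneins. In the RefSeq annotation (GRCm38.p6), Mt2 and Mt1 are neighbouring protein-coding genes, with Mt3 on the other side of Mt2.

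The labelled cell type was checked against marker genes before the results. In the C2C12 control and LPS libraries, 10 myoblast markers summed to 0.277 to 0.511 and 0.448 to 2.23 FPKM (fragments scaled by transcript length and library size), with 4 and 3 markers at 0 in all libraries of the group. The myoblast sum in the LPS-MIC-1 libraries was 798 to 1007 FPKM. Macrophage markers, 10 of 12 found, ran the other way, with sums of 7573 to 7704 FPKM in the control libraries, 5057 to 5199.7 in those with LPS and 77.4 to 221 with LPS-MIC-1. The macrophage lysozyme Lyz2 alone was at 4598 to 4761, 1786 to 1866 and 0.616 to 48.8 FPKM, the highest of the last group being replicate 1. The C2C12 control and LPS libraries therefore go against their label, and every C2C12 comparison of LPS-MIC-1 with another group is also one of libraries with opposite marker profiles. The part of this in the results below was not tested. In bulk RNA, fewer cells of a type and less RNA per cell cannot be told apart.

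Other lists also differed between the groups. In the C2C12 tables, 6 fibroblast markers summed to 442 to 537 FPKM in LPS-MIC-1 and to at most 1.95 elsewhere, 12 muscle fibre markers to 1033 to 1410 against 21.0 to 73.5, and the adipocyte list to 63.5 to 75.0 in LPS, nearly all from Fabp4, against 1.26 to 4.31. Neutrophil lists reached 15.6 FPKM, intestinal 10.4 and endothelial 6.48 at most. All 12 muscle fibre markers were above 1 FPKM in every muscle library, with sums of 213747 to 219262 in control, 207462 to 211514 with LPS and 163209 to 177152 in LPS-MIC-1. In muscle, neutrophil markers summed to 14.9 to 19.8 FPKM in LPS-MIC-1 and to at most 2.74 elsewhere, and intestinal markers, nearly all Lgals4, to 17.9 to 19.8 against 4.86 to 6.19. The muscle macrophage list summed to 15.9 to 19.9 in control, 22.5 to 24.1 with LPS and 19.9 to 141 in LPS-MIC-1, where replicate 3 stood apart with a median marker level of 5.61 FPKM against 1.498 and 1.39. Endothelial sums in muscle were 137 to 142, 92.1 to 94.0 and 101 to 113 FPKM, fibroblast sums 117 to 123, 123 to 124 and 134 to 152, adipocyte sums 287 to 290.0, 219 to 239.8 and 314 to 342, and myoblast sums 4443 to 4507, 5662 to 5757 and 2830 to 3075, in the same order of groups. Markers within a list did not all move together. Muscle adipocyte sums were nearly all Fabp4. The fibroblast median was 11.5 to 11.9 FPKM in control and 4.90 to 6.11 in LPS-MIC-1, although Dcn was at 67.2 to 72.7 and 111 to 127. Between the same groups, Actc1 of the myoblast list went from 2789 to 2902 down to 1087 to 1203, and Des from 1561 to 1670 up to 1714 to 1839. The muscle fibre median was 11619 to 11908 and 13418 to 14229, opposite to its sum.

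Replicates correlated at r = 0.968 to 0.993 in C2C12 and 0.975 to 0.979 in muscle over log2(FPKM + 0.1) of all genes. Differences below were fitted with limma on that scale, so they understate changes of genes near 0. A gene is called higher or lower here where its log2 difference exceeded 1 in size and its Benjamini-Hochberg adjusted p, over the 10877 C2C12 or 9475 muscle genes with a mean above 1 FPKM, was under 0.001 in C2C12 or 0.05 in muscle, after the thresholds of the study. All 9 genes but Slc39a8 passed the filter in C2C12, and all but Slc39a10, Slc39a8 and Slc30a1 did in muscle. For single genes, an exact 2-sided permutation test of 3 against 3 libraries cannot go below p = 0.1, which is its value wherever 2 groups do not overlap.

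Mt1 and Mt2 in the C2C12 libraries were highest in LPS-MIC-1 and lowest in control. Mt1 was at 753, 817 and 801 FPKM in the control libraries, 1497, 1524 and 1470 with LPS, and 3815, 4401 and 4305 in LPS-MIC-1. Mt2 was at 360, 367 and 380 FPKM in control, 2417, 2348 and 2320 with LPS, and 3503, 3502 and 3660 in LPS-MIC-1. For both genes, all 3 groups were apart from each other. Mt2 rose 6.41-fold from control to LPS (369 ± 10.1 to 2362 ± 49.6 FPKM, SD, n = 3, log2 difference 2.68, SE 0.0553, limma adjusted p = 2.27e-08). The 1.89-fold difference of Mt1 (790 ± 33.3 to 1497 ± 26.98 FPKM) lay just under the fold threshold, with a log2 difference of 0.92 (95% interval 0.75 to 1.09, limma adjusted p = 1.44e-05).

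Between LPS and LPS-MIC-1 the order of Mt1 and Mt2 turned. Mt1 rose 2.79-fold to 4174 ± 314 FPKM (SD, n = 3, log2 difference 1.48, SE 0.0744, limma adjusted p = 3.21e-07). Mt2 reached 3555 ± 90.8 FPKM, 1.51-fold above LPS, with a log2 difference of 0.59 that did not pass the fold threshold (limma adjusted p = 1.49e-05) and was 0.26 after quantile normalization (adjusted p = 0.00599). Against control, LPS-MIC-1 was higher 5.28-fold for Mt1 and 9.64-fold for Mt2, with log2 differences of 2.40 and 3.27 (limma adjusted p = 2.29e-08 and 2.05e-09). These comparisons share libraries and are not independent of each other.

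In gastrocnemius muscle both metallothioneins rose with LPS and rose again with LPS-MIC-1. Mt1 was at 30.7, 34.7 and 28.4 FPKM in control, 82.6, 87.5 and 88.5 with LPS, and 6342, 6080 and 5624 in LPS-MIC-1. Mt2 was at 7.70, 7.78 and 8.41 FPKM in control, 36.3, 35.6 and 35.5 with LPS, and 6773, 6627 and 5957 in LPS-MIC-1. No library of one group came near another group. With LPS, Mt1 was 2.76-fold above control (31.3 ± 3.22 to 86.2 ± 3.13 FPKM, SD, n = 3, log2 difference 1.46, SE 0.0750, limma adjusted p = 1.32e-05). Mt2 was 4.49-fold above control (7.96 ± 0.390 to 35.8 ± 0.475 FPKM, log2 difference 2.16, SE 0.0539, limma adjusted p = 4.34e-07). The muscle groups also differed in the marker sums given above, and the part of this in the muscle results was not tested.

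Muscle LPS-MIC-1 libraries stood far above those with LPS alone. Mt1 rose 69.8-fold to 6015 ± 363 FPKM (SD, n = 3, log2 difference 6.12, limma adjusted p = 4.63e-10), and Mt2 rose 180-fold to 6452 ± 435 FPKM (log2 difference 7.49, limma adjusted p = 2.47e-11). By log2 difference, Mt2 ranked 5 and Mt1 ranked 16 among the 9475 genes tested. Against control the rises were 192-fold and 810-fold, with log2 differences of 7.59 and 9.64 (limma adjusted p = 1.38e-10 and 5.21e-12), at ranks 7 and 3. The muscle LPS-MIC-1 replicate that stood apart by its macrophage markers, replicate 3, had the lowest Mt1 and Mt2 of its group, and leaving out each library in turn kept the log2 differences from LPS between 6.08 and 6.17 for Mt1 and between 7.45 and 7.54 for Mt2.

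**Figure D1:**
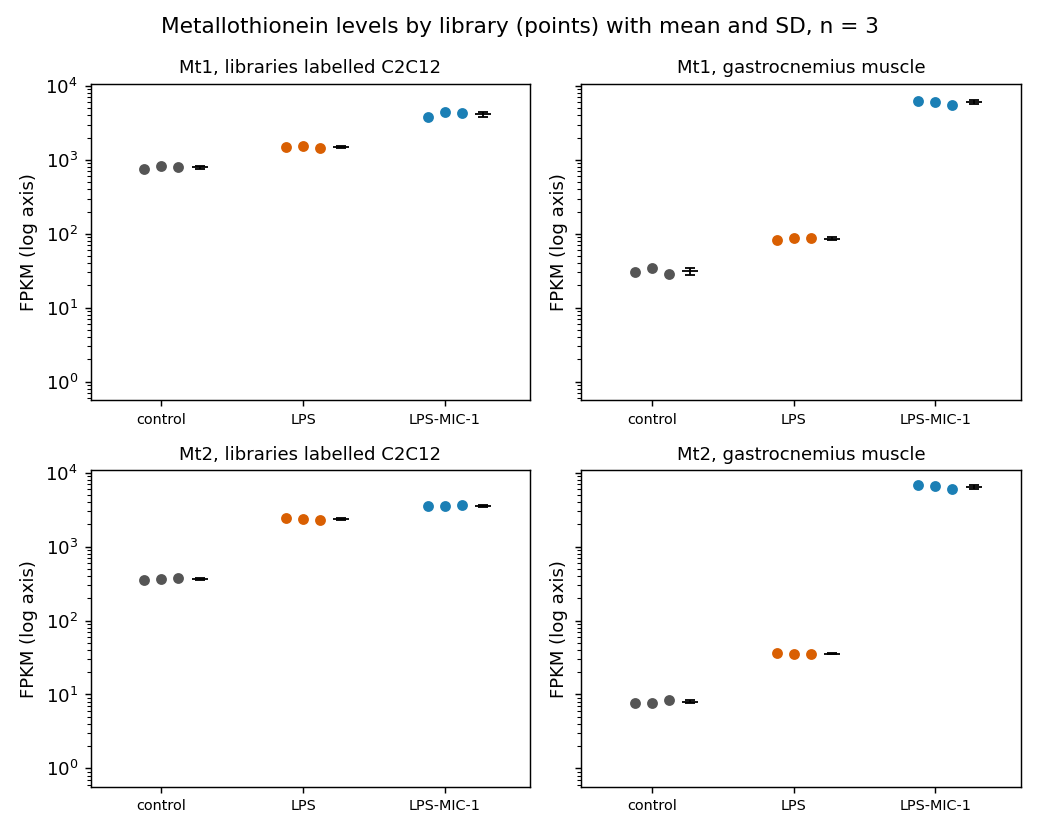
Mt1 and Mt2 levels in FPKM on a log axis in the 18 libraries, as points by group with the group mean and SD (n = 3), for the libraries labelled C2C12 and for gastrocnemius muscle. In both experiments the 3 groups do not overlap, and the muscle LPS-MIC-1 libraries lie between 5624 and 6773 FPKM while those of control lie between 7.70 and 34.7.

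Together, Mt1 and Mt2 took up 0.211% of all FPKM in C2C12 control, 0.556% with LPS and 1.09% in LPS-MIC-1. In muscle the shares were 0.00535%, 0.0169% and 1.89%. Among all genes of a muscle library, Mt1 went from rank 1473 to 1706 by FPKM in control to rank 16 to 17 in LPS-MIC-1, and Mt2 from rank 4008 to 4224 to rank 15 to 16.

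The balance between Mt1 and Mt2 also shifted. Mt1 exceeded Mt2 2.14 ± 0.0714-fold in C2C12 control (mean ratio of FPKM, SD, n = 3), lay below it in LPS at a ratio of 0.634 ± 0.0146, and was at 1.17 ± 0.0838 in LPS-MIC-1. In muscle the ratio was 3.94 ± 0.548 in control, 2.41 ± 0.119 with LPS and 0.933 ± 0.0136 in LPS-MIC-1. No 2 groups of an experiment overlapped in this ratio (exact 2-sided permutation p = 0.1 for each of the 6 comparisons, the smallest that 3 against 3 allows). Mt1 and Mt2 are close paralogs, and pseudoalignment divides reads that match both by estimation, so the ratio is less certain than the sum.

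**Figure D2:**
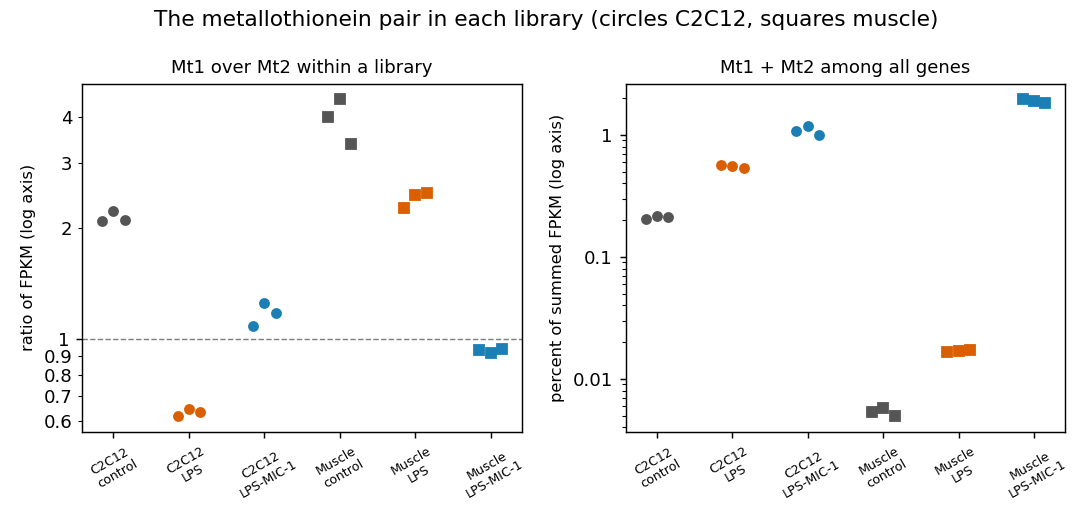
The ratio of Mt1 to Mt2 FPKM (left) and the percent of all FPKM taken by both genes (right) in each of the 18 libraries, both on log axes. The dashed line marks a ratio of 1, and the C2C12 LPS and muscle LPS-MIC-1 libraries are the groups below it.

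Mtf1, which encodes the zinc sensor, rose with LPS in the C2C12 libraries, and none of its muscle differences was called. Its C2C12 levels were 3.45, 3.52 and 3.49 FPKM in control, 8.02, 8.08 and 7.99 with LPS, and 5.18, 5.06 and 4.91 in LPS-MIC-1. The rise with LPS was 2.30-fold (log2 difference 1.18, SE 0.0700, limma adjusted p = 2.72e-06). The LPS-MIC-1 level lay between the other two, with log2 differences of -0.66 from LPS and 0.52 from control that passed the p threshold but not the fold threshold (limma adjusted p = 3.31e-05 and 0.000162). In muscle Mtf1 was at 3.25, 2.91 and 2.57 FPKM in control, 2.61, 2.49 and 2.79 with LPS, and 2.32, 2.51 and 2.16 in LPS-MIC-1. Muscle LPS overlapped both other groups, and the largest log2 difference, that of LPS-MIC-1 from control, was -0.31 (limma adjusted p = 0.0457).

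Slc39a14 encodes ZIP14, an importer of zinc and non-transferrin-bound iron. In C2C12 it was at 8.61, 9.09 and 9.00 FPKM in control, 15.9, 16.2 and 15.6 with LPS, and 21.0, 20.4 and 17.1 in LPS-MIC-1, so that no groups overlapped. It rose 2.19-fold from control to LPS-MIC-1 (log2 difference 1.12, SE 0.0813, limma adjusted p = 3.48e-06), whereas the log2 differences of 0.83 between LPS and control and of 0.29 between LPS-MIC-1 and LPS were not called (limma adjusted p = 4.34e-05 and 0.0105).

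In muscle, Slc39a14 rose in LPS-MIC-1 and was not called for LPS. Its levels were 2.09, 2.15 and 1.87 FPKM in control, 2.77, 2.33 and 2.39 with LPS, and 50.0, 51.2 and 47.4 in LPS-MIC-1. LPS libraries lay above control libraries without overlap, at a log2 difference of 0.28 (SE 0.0833, limma adjusted p = 0.0566). From LPS to LPS-MIC-1 it rose 19.8-fold (2.50 ± 0.234 to 49.5 ± 1.94 FPKM, SD, n = 3, log2 difference 4.26, limma adjusted p = 3.59e-09), and from control 24.3-fold (log2 difference 4.54, limma adjusted p = 2.35e-09).

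Slc39a10, which encodes ZIP10, fell in the C2C12 libraries, opposite to Slc39a14. It was at 16.7, 17.1 and 16.5 FPKM in control, 7.78, 9.23 and 8.32 with LPS, and 3.03, 2.84 and 2.68 in LPS-MIC-1. It fell by 1.53 on the log2 scale from LPS to LPS-MIC-1 and fell by 2.52 from control to LPS-MIC-1 (limma adjusted p = 5.88e-07 and 3.75e-08). The difference between LPS and control of -0.98 was just inside the fold threshold and was not called (limma adjusted p = 2.24e-05), though it was without LPS replicate 2 (log2 difference -1.05, adjusted p = 8.02e-05). Muscle Slc39a10 was too low to be tested, between 0.303 and 1.53 FPKM in the 9 libraries, and all groups overlapped.

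Slc39a1 encodes ZIP1, and it had the highest mean FPKM over 9 libraries of the 6 transporters in each experiment (87.8 in C2C12 and 23.4 in muscle), although in muscle LPS-MIC-1 Slc39a14 was higher, at 49.5 against 22.2 FPKM. In C2C12 it was at 87.5, 94.8 and 92.8 FPKM in control, 118, 116 and 117 with LPS, and 53.9, 51.2 and 59.7 in LPS-MIC-1. It fell by 1.09 from LPS to LPS-MIC-1 on the log2 scale (SE 0.0603, limma adjusted p = 5.52e-07). Its log2 difference of 0.35 between LPS and control reached neither threshold (limma adjusted p = 0.00114). That of -0.74 between LPS-MIC-1 and control passed the p threshold but not the fold threshold (limma adjusted p = 7.07e-06). Muscle levels ranged only from 21.4 to 25.3 FPKM, with group means of 24.7 ± 0.804 in control, 23.1 ± 1.55 with LPS and 22.2 ± 0.654 in LPS-MIC-1 (SD, n = 3). The LPS group overlapped both others, and LPS-MIC-1 lay below control with a log2 difference of -0.15 (limma adjusted p = 0.0444).

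Slc39a8, the gene of the zinc and manganese importer ZIP8, was low throughout and was tested in neither experiment. In C2C12 it was at 0.629, 0.678 and 0.396 FPKM in control, 0.470, 0.429 and 0.874 with LPS, and 1.81, 1.24 and 1.48 in LPS-MIC-1, so the last group lay above the other two, which overlapped. In muscle all libraries were between 0.116 and 0.429 FPKM. The authors' normalised read counts, averaged over the 6 libraries of a comparison, were 34.8 to 54.7 for Slc39a8 in C2C12 and 9.64 to 11.9 in muscle, so its levels rest on few reads.

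The exporter genes were highest in control or LPS and lowest in LPS-MIC-1 in the C2C12 libraries. Slc30a1 encodes ZnT1, which carries zinc across the plasma membrane out of the cell and is a target of MTF-1. It was at 4.32, 4.57 and 4.26 FPKM in control, 3.71, 3.27 and 4.05 with LPS, and 1.54, 2.38 and 1.49 in LPS-MIC-1. LPS-MIC-1 lay below LPS by -1.02 on the log2 scale (SE 0.181, limma adjusted p = 0.000835) and below control by -1.27 (limma adjusted p = 0.000241), both past the thresholds. The first call held without LPS-MIC-1 replicate 2 (adjusted p = 4.92e-05) and was lost without any 1 of the other 8 libraries (adjusted p = 0.00201 to 0.00433). The second was lost without control replicate 1, 2 or 3 (adjusted p = 0.00127 to 0.00154). The log2 difference between LPS and control was -0.25 (limma adjusted p = 0.263). In muscle, Slc30a1 was below the filter, at 0.640, 0.478 and 0.894 FPKM in control, 0.968, 1.00 and 0.859 with LPS, and 1.04, 1.299 and 0.930 in LPS-MIC-1. The muscle LPS-MIC-1 libraries all lay above those of control, and the LPS libraries overlapped both groups.

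Slc30a4 encodes ZnT4, a vesicular zinc transporter. In the C2C12 libraries it was at 6.30, 5.57 and 6.87 FPKM in control, 13.1, 13.6 and 15.5 with LPS, and 4.12, 1.93 and 2.91 in LPS-MIC-1, with no overlap. It fell by 2.26 from LPS to LPS-MIC-1 on the log2 scale (SE 0.242, limma adjusted p = 3.47e-05). The log2 difference of 1.16 between LPS and control passed the fold threshold but not the p threshold (limma adjusted p = 0.00319), and the same held for the difference of -1.10 between LPS-MIC-1 and control (limma adjusted p = 0.00300). The first of these would have been called without LPS-MIC-1 replicate 1 (adjusted p = 0.000527) or replicate 2 (adjusted p = 0.000418), and the second without replicate 1 (log2 difference -1.36, adjusted p = 0.000288). Muscle levels were scattered, at 1.99, 1.48 and 0 FPKM in control, 0, 3.55 and 0.498 with LPS, and 0.978, 0.945 and 1.49 in LPS-MIC-1. None of its muscle differences passed the test, the log2 difference between LPS and control being -0.20 with an SE of 1.46.

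**Figure D3:**
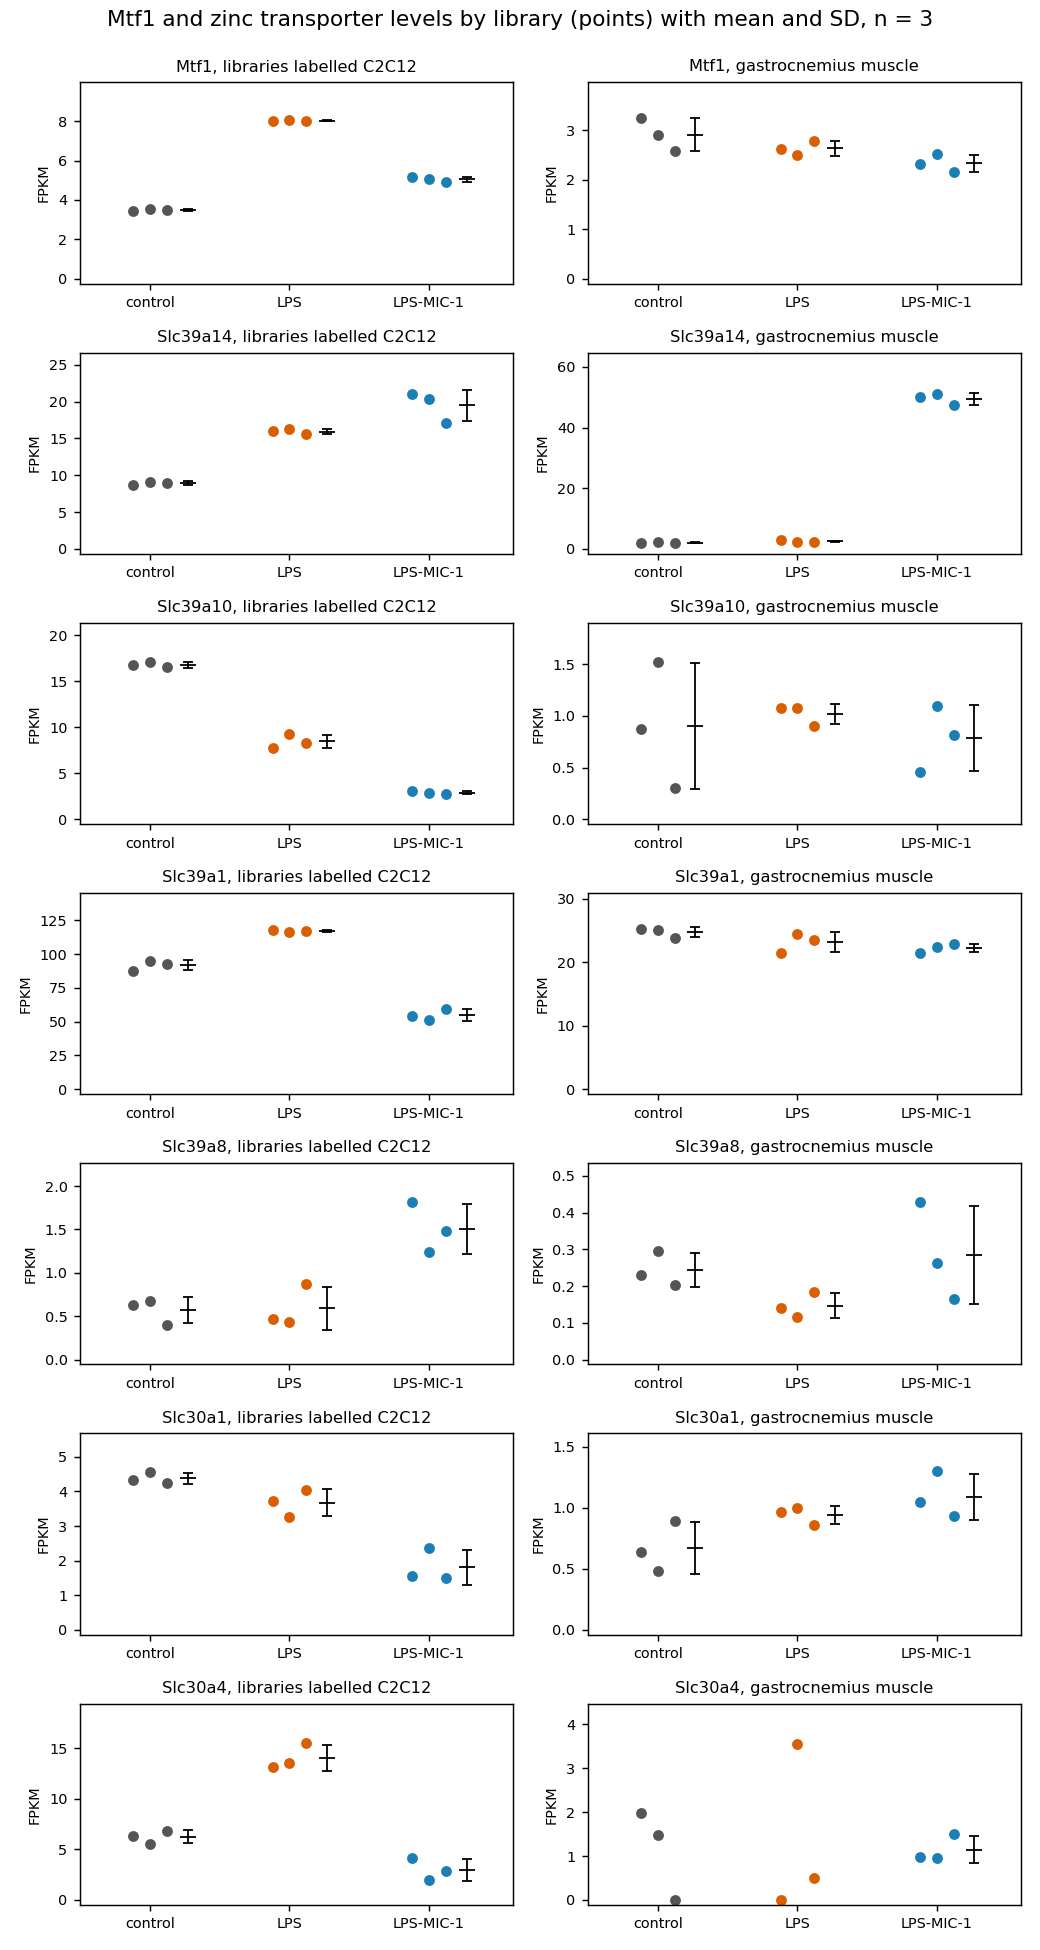
Levels in FPKM, on linear axes, of Mtf1 and the 6 zinc transporters by group, in the libraries labelled C2C12 (left) and in muscle (right), as points per library with mean and SD (n = 3), which are not drawn for groups with a library listed at 0. Slc39a14 in muscle is at 47.4 to 51.2 FPKM in LPS-MIC-1 and at most 2.77 in the other groups, whereas Slc39a1 in muscle stays between 21.4 and 25.3 FPKM.

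As a list, 2 of the 8 genes tested in C2C12 (Mt2 and Mtf1) were higher in LPS than in control and none was lower, where 10.9% of all genes tested were called higher and 10% lower. At an unadjusted limma p under 0.05, 6 lay higher and 1 lower, beside 32.6% and 33.6% of all genes. From LPS to LPS-MIC-1, 1 gene (Mt1) was higher and 4 (Slc30a1, Slc30a4, Slc39a1 and Slc39a10) were lower, beside 24.3% and 25.6% of all genes, and at an unadjusted p under 0.05 the counts were 3 and 5, beside 41.6% and 43.6%. LPS-MIC-1 against control had 3 higher (Mt1, Mt2 and Slc39a14) and 2 lower (Slc30a1 and Slc39a10), beside 21.1% and 22.1%, and 4 and 4 at an unadjusted p under 0.05, beside 39.9% and 42.4%. The median log2 differences of the 8 genes were 0.88, -0.84 and -0.11 in these 3 comparisons, against 0.00, -0.05 and -0.06 over all genes tested.

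In muscle, Mt1 and Mt2 were the 2 genes of 6 tested that were higher in LPS, beside 0.654% of all genes called higher and 0.591% lower. Mt1, Mt2 and Slc39a14 were the 3 of 6 that were higher in LPS-MIC-1 than in LPS, beside 9.67% called higher and 5.44% lower, and the same 3 were higher than in control, beside 9.33% and 6.12%. No gene of the 6 was lower in these limma fits. At an unadjusted p under 0.05, none lay lower in LPS against control or in LPS-MIC-1 against LPS, and 2 did in LPS-MIC-1 against control (Mtf1 and Slc39a1), where 14.2%, 30.5% and 30.7% of all genes lay lower by that measure. Median log2 differences of the 6 genes were 0.09, 2.64 and 2.68, against 0.01, -0.01 and 0.01 over all genes.

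**Figure D4:**
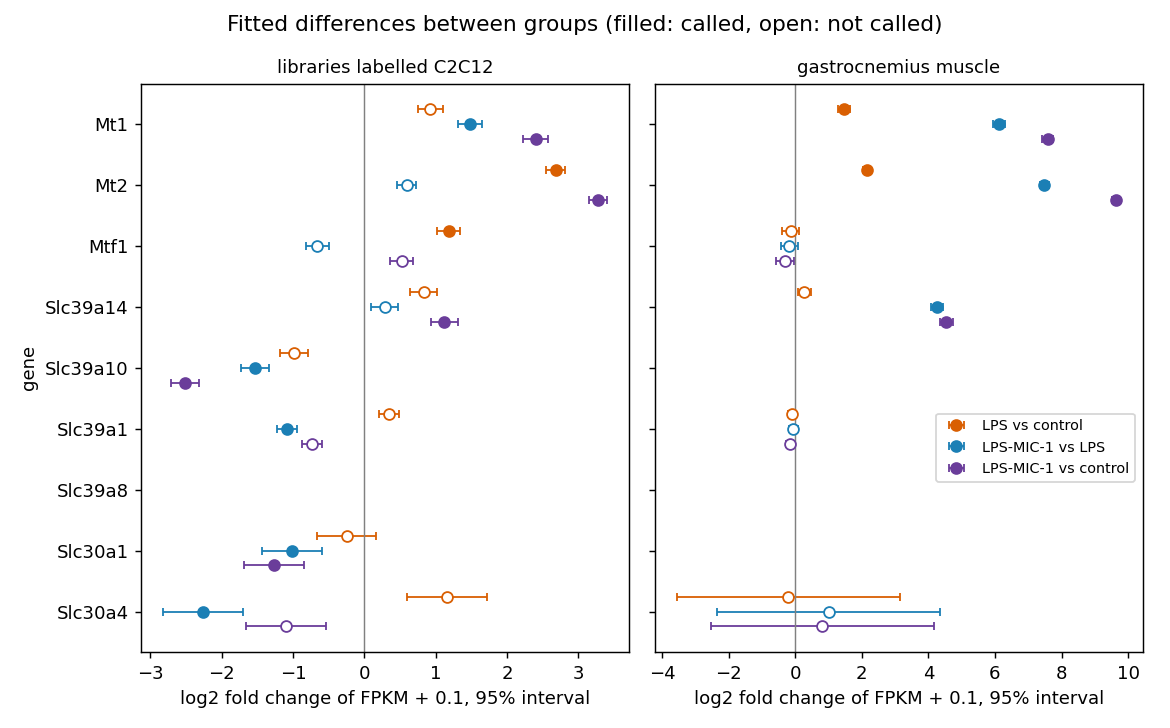
Fitted log2 differences of log2(FPKM + 0.1) with 95% intervals for the genes tested, in the libraries labelled C2C12 (left) and in muscle (right), with filled points for called differences. In muscle, Mt1, Mt2 and Slc39a14 have differences of 4.26 to 9.64 in the comparisons of LPS-MIC-1, and Mtf1, Slc39a1 and Slc30a4 have no called difference.

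The other zinc transporters and metallothioneins formed a list of 20 genes. In C2C12, 11 were tested, of which 1 was higher in LPS than in control and none lower, beside 10.9% and 10% of all genes. It was Slc39a2, the ZIP2 importer, from 0.245 ± 0.115 to 9.02 ± 0.261 FPKM (SD, n = 3). Slc39a2 was at 0.215 ± 0.189 FPKM in LPS-MIC-1, so it passed the filter only through the LPS group. At an unadjusted limma p under 0.05, 6 lay higher and 1 lower, beside 32.6% and 33.6%. From LPS to LPS-MIC-1, 1 gene was higher, Slc39a13, a transporter of the secretory pathway, from 13.2 ± 0.375 to 30.1 ± 2.76 FPKM. In this comparison 4 were lower, namely Slc39a2, Slc30a7, Slc30a9 and Slc39a11, where 24.3% of all genes were called higher and 25.6% lower. Slc39a11 was at 12.7, 11.7 and 10.6 FPKM in LPS and at 0, 0 and 0.381 in LPS-MIC-1. At an unadjusted limma p under 0.05, 4 lay higher and 6 lower, beside 41.6% and 43.6%. Against control, LPS-MIC-1 was higher for Slc39a13, Slc39a6 and Slc39a7 (ZIP7, an endoplasmic reticulum zinc channel, from 78.7 ± 1.10 to 162 ± 9.51 FPKM) and lower for Slc30a5 (50.3 ± 0.489 to 14.8 ± 1.08 FPKM), Slc30a9 and Slc39a11. All-gene shares in this last comparison were 21.1% higher and 22.1% lower. At an unadjusted limma p under 0.05, 5 lay higher and 5 lower, beside 39.9% and 42.4%. The list's median log2 differences in the 3 comparisons were 0.47, -0.44 and -0.35, against 0.00, -0.05 and -0.06 over all genes tested.

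In muscle, 10 genes of this list were tested and limma called none between LPS and control or between LPS-MIC-1 and LPS. Over all genes, 0.654% were called higher and 0.591% lower in the first comparison, and 9.67% and 5.44% in the second. At an unadjusted p under 0.05, 0 lay higher and 1 lower in the first comparison, and 3 higher and 2 lower in the second, beside 15.4% and 14.2% of all genes in the first and 30.5% and 30.5% in the second. LPS-MIC-1 was above control for Slc30a5 (ZnT5, which supplies zinc to the secretory pathway, from 2.93 ± 0.359 to 5.97 ± 0.332 FPKM, SD, n = 3) and for Slc30a2, beside 9.33% of all genes. Slc30a2 was at 0.329, 1.43 and 0 FPKM in control and at 6.82, 4.64 and 2.79 in LPS-MIC-1. Its means were 0.585, 1.09 and 4.75 FPKM in control, LPS and LPS-MIC-1, so it passed the filter mainly through the last group. Slc39a2 was lower, from 2.82 ± 0.533 to 0.848 ± 0.101 FPKM, beside 6.12% of all genes. At an unadjusted limma p under 0.05, 3 lay higher and 2 lower than control, beside 32% and 30.7%. Slc39a7 and Slc30a9 were the most abundant genes of the list, at 27.7 ± 0.810 and 13.7 ± 3.18 FPKM in LPS-MIC-1 against 19.3 ± 0.776 and 11.8 ± 1.66 in control, and neither was called. The medians were 0.09, 0.05 and 0.36.

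A further list of 11 genes held known inducers of metallothioneins and targets of the same signals, namely interleukin-6 and STAT3, the glucocorticoid receptor and NRF2. Of 10 tested in C2C12, 5 were higher in LPS than in control (Hmox1, Il6, Socs3, Stat3 and Tsc22d3) and none lower, beside 10.9% and 10% of all genes. At an unadjusted p under 0.05, 6 lay higher and 4 lower, beside 32.6% and 33.6%. Il6 was listed at 0 in all control libraries and at 56.8 ± 3.63 FPKM with LPS and 12.3 ± 2.62 in LPS-MIC-1 (SD, n = 3). Socs3, an inhibitor of cytokine signalling, went from 33.0 ± 1.43 to 298 ± 2.47 and then to 23.4 ± 5.68 FPKM. From LPS to LPS-MIC-1, Hmox1, Il6, Socs3 and Tsc22d3 were lower and none was higher, beside 25.6% and 24.3% of all genes. At an unadjusted p under 0.05, 9 lay lower and none higher, beside 43.6% and 41.6%. Against control, Il6 was the one gene called higher in LPS-MIC-1 and none was lower, beside 21.1% and 22.1% of all genes. By the unadjusted p, 2 lay higher than control and 5 lower, beside 39.9% and 42.4%. Between LPS and LPS-MIC-1 in the C2C12 libraries, Mt1 was higher and Il6 lower. These groups also differed in macrophage and myoblast markers, and the part of this in these values was not tested.

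In muscle, 8 genes of this list were tested. Socs3 was lower in LPS than in control (5.50 ± 0.771 to 0.697 ± 0.395 FPKM, SD, n = 3) and none was higher by the call, beside 0.591% and 0.654% of all genes. At an unadjusted p under 0.05, 5 lay higher and 1 lower, beside 15.4% and 14.2%. From LPS to LPS-MIC-1, 5 rose and none fell, beside 9.67% and 5.44%, and at an unadjusted p under 0.05, 8 lay higher, beside 30.5%. The glucocorticoid receptor targets Fkbp5 and Tsc22d3 went from 11.01 ± 0.268 to 94.2 ± 5.06 and from 57.2 ± 1.84 to 266 ± 19.9 FPKM, Stat3 from 7.06 ± 0.323 to 29.7 ± 1.12, Socs3 to 5.84 ± 0.821, and Hmox1, the haem oxygenase gene and an NRF2 target, from 7.73 ± 0.631 to 19.6 ± 1.26. Against control, Fkbp5, Tsc22d3, Stat3, Hmox1 and Nfe2l2, the gene of NRF2, were the 5 higher and none was lower, beside 9.33% and 6.12% of all genes. At an unadjusted p under 0.05, 7 lay higher than control and none lower, beside 32% and 30.7%. Median log2 differences of the list were 0.97, -1.39 and -0.55 in C2C12 and 0.19, 1.69 and 1.23 in muscle, in the order LPS against control, LPS-MIC-1 against LPS and LPS-MIC-1 against control. Over all genes tested these medians were 0.00, -0.05 and -0.06 in C2C12 and 0.01, -0.01 and 0.01 in muscle.

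The genes whose pattern was most like that of Mt1 and Mt2 were sought by Pearson's r of log2(FPKM + 0.1) over the 9 libraries of an experiment, given as a description since the libraries share groups. In muscle, Mt1 was most like Map3k6 (r = 0.9996), Fkbp5 (r = 0.9996) and Xirp1 (r = 0.9993), and Mt2 most like Ubr2 (r = 0.9998), 6430548M08Rik (r = 0.9995) and Hspb7 (r = 0.9992). Mt1 and Mt2 had r = 0.999 with each other there. Such an r does not measure the size of a change. In control, LPS and LPS-MIC-1 muscle, mean levels of Ubr2 were 13.1, 16.1 and 32.3 FPKM, and those of Hspb7 were 29.3, 57.5 and 456. Of the 9474 other genes tested, 137 had r above 0.99 with Mt1 and 100 with Mt2, so these genes are members of a larger set with the same order of groups. In C2C12, Mt1 was most like Phc2 (r = 0.9995), Laptm4b (r = 0.9988) and Nrbp1 (r = 0.9986), and Mt2 most like Slpi (r = 0.9997), Rhob (r = 0.9997) and Bdkrb1 (r = 0.9994). Mt1 and Mt2 had r = 0.883 with each other in C2C12. Here too the named genes belong to a larger set, since 111 of the 10876 other genes tested had r above 0.99 with Mt1 and 51 with Mt2.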

How the data were processed

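FPKM values per gene were deposited by the authors for 18 libraries, made from kallisto pseudoalignments through tximport and DESeq2. The labels name mm9. Deposited DESeq2 tables gave normalised counts averaged over 6 libraries (a signal, used only to judge depth, with sums of 13873500 to 18734400 over genes), while their fold changes and p-values were not used. The muscle control against LPS table was not used, because its base mean for muscle creatine kinase (Ckm) is far below that in the other muscle tables, whereas Ckm was at 35103 to 39953 FPKM in the muscle control and LPS libraries. Which libraries it was made from was not settled. Of the muscle FPKM table, 11 unnamed columns, 9 of them with per-sample values, were not used. Reads per library are not given in the sources used here, so FPKM values carry no counting interval.

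Each experiment was fitted apart, since its table was normalised separately, with limma 3.58.1 in R 4.3.3 on log2(FPKM + 0.1) of genes with a mean above 1 FPKM, with means of 3 groups, a trended eBayes and Benjamini-Hochberg adjustment over all genes tested. The fit was tested on simulated data. Single genes had an exact permutation test. Groups came from the labels. Alternatives changed the pseudocount, filter, scaling, libraries, replicate block, thresholds and trend. Figures used matplotlib 3.10.9.

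The genes and the lists (other zinc family, metallothionein regulators, copper handling, cell markers) were chosen with earlier results of these data known. Genes of the zinc and regulator lists were named if called, or among the 2 highest of a list, and for likeness the 3 highest r were taken. Il6, Il6ra and Nr3c1 were below the filter in muscle and are not described there. Genes of the copper list were named after their values were seen. Sequences were not used here.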

Additional observations from a re-analysis of the deposited data

Results flagged for a closer look

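The values of Mtf1 and Slc30a1 in LPS-MIC-1 lay on opposite sides of control in the 2 experiments, without overlap of the groups in either. The log2 difference of Mtf1 was 0.52 in C2C12 and -0.31 in muscle, and it was called in neither. The adjusted p of the muscle value was 0.0457, and it rose to 0.0703 without a filter and to 0.147 without control replicate 1. That of Slc30a1 was -1.27 in C2C12 and 0.65 in muscle, where the gene was below the filter and the value comes from the fit without one (adjusted p = 0.0550). The difference between the experiments was not tested, since the 2 tables were normalised separately. The C2C12 control libraries also carried macrophage markers in place of myoblast markers, and its part in these values was not tested.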

How the results depend on the processing

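Calling genes by adjusted p alone, at any fold change, raised the count of these genes called to 5 for C2C12 LPS against control and to 5 for muscle LPS-MIC-1 against control. In the other alternatives all counts stayed within 1.5 times their value. Leaving out each library in turn gave 2 to 3, 4 to 5 and 4 to 6 genes called in the 3 C2C12 comparisons (LPS against control, LPS-MIC-1 against LPS, LPS-MIC-1 against control), and 2, 3 and 3 in muscle. Muscle Slc30a4 changed direction in these fits, with log2 differences from -1.60 to 1.09 for LPS against control, from -0.28 to 1.12 for LPS-MIC-1 against LPS and from -0.58 to 1.61 for LPS-MIC-1 against control, and fits with 1 library removed gave 0.60 (control replicate 1), 0.40 (control replicate 2) and 1.09 (LPS replicate 1) for the first comparison. None of these passed the test. The Slc30a1 call for LPS-MIC-1 against LPS in C2C12 held in 2 of 8 other alternatives and in 1 of 9 fits without a library (adjusted p = 4.92e-05 to 0.00433), and the cause was not tested. Those 2 were the eBayes fit without trend and median-ratio scaling, whose outcome was fixed in advance. Slc39a10 passed for C2C12 LPS against control under quantile normalization and without LPS replicate 2 (log2 difference -1.05 in each). Quantile normalization moved the median of all muscle genes to -0.12 for LPS-MIC-1 against LPS and -0.10 against control, with 781 genes higher and 667 lower in place of 916 and 515, and 782 and 713 in place of 884 and 580. In C2C12 the same normalization turned the split for LPS against control from 1182 and 1093 to 1101 and 1271, and it took the Mt2 difference between LPS-MIC-1 and LPS from 0.59 to 0.26. For muscle LPS against control, 62 genes higher and 56 lower became 37 and 34 with a pseudocount of 1, 31 and 26 with a mean above 5 FPKM, and 28 and 24 at an adjusted p under 0.001. For LPS-MIC-1 in muscle, the genes higher and lower became 452 and 204 against LPS and 462 and 215 against control with a mean above 5 FPKM, and 1360 and 798 against LPS and 1325 and 915 against control without a filter. At any fold change, all-gene calls were 2021 and 2094 for C2C12 LPS against control and 782 and 709, 2686 and 2670, and 2841 and 2703 in the 3 muscle comparisons. Median-ratio scaling could change nothing, since its factor was the same for all libraries of a table. Same-numbered libraries did not deviate together (r = -0.076 to 0.082), so the numbers do not pair them; with a replicate block, 2, 4 and 4 genes were called in C2C12, Slc30a1 being lost in both comparisons of LPS-MIC-1 (adjusted p = 0.00326 and 0.00130), and 2, 3 and 3 in muscle.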

Other observations

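Metallothioneins also bind copper, and 8 copper-handling genes were examined beside them. In C2C12, 7 were tested. Cox17, which carries copper to mitochondrial cytochrome oxidase, was at 80.2 ± 4.15 FPKM in control, 261 ± 14.3 with LPS and 212 ± 31.0 in LPS-MIC-1 (SD, n = 3), and Atp7a, the copper-exporting ATPase, at 7.69 ± 0.506, 18.7 ± 0.223 and 2.72 ± 0.350. Both were called higher in LPS than in control and none of the 7 was lower, beside 10.9% and 10% of all genes. From LPS to LPS-MIC-1, Atp7a and the copper importer gene Slc31a1 (51.7 ± 0.646 to 12.9 ± 1.42 FPKM) fell and Commd1 rose (38.0 ± 2.35 to 80.7 ± 10.6). Among all genes, 25.6% were called lower and 24.3% higher in this comparison. Against control, Cox17 and Commd1 were higher in LPS-MIC-1 and Atp7a and Slc31a1 were lower, beside 21.1% and 22.1% of all genes. Median log2 differences of the list were 0.96, -0.31 and -0.14 for LPS against control, LPS-MIC-1 against LPS and LPS-MIC-1 against control. Over all genes tested they were 0.00, -0.05 and -0.06. The C2C12 groups also differed in macrophage and myoblast markers, and its part in these values was not tested.

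In muscle, where Mt1 and Mt2 rose, none of the 6 copper-handling genes tested was called by limma in any of the 3 comparisons. Over all genes, 0.654% were called higher and 0.591% lower for LPS against control. These shares were 9.67% and 5.44% for LPS-MIC-1 against LPS, and 9.33% and 6.12% for LPS-MIC-1 against control. At an unadjusted p under 0.05, 1 lay higher and 1 lower for LPS against control, and 0 higher and 4 lower for each comparison of LPS-MIC-1. Among all genes, 15.4% lay higher and 14.2% lower in the first comparison, 30.5% and 30.5% between LPS and LPS-MIC-1, and 32% and 30.7% between control and LPS-MIC-1. Median log2 differences of the list were -0.14, -0.26 and -0.45 for LPS against control, LPS-MIC-1 against LPS and LPS-MIC-1 against control, beside 0.01, -0.01 and 0.01 over all genes tested.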
